A study of Mus musculus with 23 samples.

Results

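The macrophage and myeloid genes described here are 33 genes taken by name from a list of markers and effectors of macrophages and related phagocytes, out of 54446 genes in a count table from mouse skeletal muscle. All 33 passed the filter on low counts, which left 16146 genes for testing, and 32 of them, all but Itgam, were among the 15624 genes of a second expression table. They were sorted by role into 7 groups, which were lineage and identity genes, adaptors and Fc receptors, pattern recognition and scavenger receptors, the C1q chains, the phagocyte oxidase, lysosomal enzymes, and secreted or lipid-laden-state genes.

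The study sequenced mRNA of whole mouse muscle after the motor nerve supply had been interrupted (denervation), in mice carrying changes in the transcription factors PAX4 and NRF1. The first set held 3 libraries of denervated muscle from PAX4 KO mice at 10 d, 3 of denervated muscle from WT mice at 10 d, and 3 of innervated control muscle from WT mice. The second set was denervated for 10 d throughout and held 3 libraries labelled double KD (NRF1PAL-PAX4), 3 labelled NRF1 KD (NRF1PAL) and 2 WT libraries called con. α-Pal is another name of nuclear respiratory factor 1, the product of Nrf1. The tissue in which PAX4 was deleted, the way the knockdowns were made, the muscle taken, and the strain, sex and age of the mice are not given in these sources. Nothing says either that the libraries of a group came from separate animals, so that p-values reflect library-to-library spread, which may be technical. A WT con library numbered 1, 2 further innervated libraries and 3 libraries denervated for 14 d were not analysed here.

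Macrophages arise from monocytes or persist as resident cells, depend on the growth factor receptor CSF1R and on the transcription factor PU.1, and carry the leukocyte phosphatase CD45. In muscle they clear dying fibres and nerve debris and exchange signals with satellite cells and fibroblasts. Their surface receptors for antibody, for microbial sugars and for lipids signal through small adaptors that hold an immunoreceptor tyrosine-based activation motif (ITAM) and recruit the kinase SYK, and their effectors include complement C1q, the superoxide-producing NADPH oxidase and lysosomal proteases. In bulk muscle RNA, a change in the number of such cells and a change in the RNA that each holds cannot be told apart.

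Since Spi1, which encodes PU.1, is itself a member, the 250 bases upstream of the start site were searched for GAGGAA, the core that PU.1 and other ETS-family factors recognise, on both strands. RefSeq promoter windows (GRCm38.p6) matched 25 of the 33 members by symbol, and 14 of these 25 genes, or 56%, held the core, against 25.9% of 27025 genes with a window. Over windows, which include alternative starts, the core was in 16 of 29 member windows (55.2%) and in 23.3% of 32851 windows. The longer PU.1 form GAGGAAGT, which contains the core, was in 2 member windows (C1qc and Spp1), or 6.9%, against 2.44% of all windows. The AP-1 letters TGAGTCA were in 3 member windows (Cd68, Cd84 and Itgax), or 10.3%, against 4.46% of all windows. Neither the NRF1 core GCATGCGC nor the C/EBP letters TTGCGCAA were in any member window, against 2.26% and 0.164% of all windows. A match describes letters only and is no measured binding site.

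The windows of 5 members from 5 role groups, all called higher in denervated WT and in libraries labelled NRF1 KD, are shown to let the core be seen in place. Each reads 5′ to 3′ on the strand of its gene and ends next to the RefSeq start site, with the core or its reverse complement in capitals. The C1qb window lies at chr4:136886201-136886450 on the minus strand, the Cd68 window at chr11:69666171-69666420 on the minus strand, the Ctss window at chr3:95526536-95526785 on the plus strand, the Fcgr1 window at chr3:96293970-96294219 on the minus strand and the Trem2 window at chr17:48346151-48346400 on the plus strand. The first base of the match lies 30 bases before the start site in C1qb, 225 in Cd68, 164 in Ctss, 55 in Fcgr1 and 40 in Trem2.
C1qb: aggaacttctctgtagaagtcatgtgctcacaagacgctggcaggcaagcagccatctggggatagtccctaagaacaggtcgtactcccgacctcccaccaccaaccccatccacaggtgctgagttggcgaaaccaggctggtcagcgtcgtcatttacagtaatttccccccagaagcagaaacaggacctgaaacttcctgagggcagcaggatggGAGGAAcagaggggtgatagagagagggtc
Cd68: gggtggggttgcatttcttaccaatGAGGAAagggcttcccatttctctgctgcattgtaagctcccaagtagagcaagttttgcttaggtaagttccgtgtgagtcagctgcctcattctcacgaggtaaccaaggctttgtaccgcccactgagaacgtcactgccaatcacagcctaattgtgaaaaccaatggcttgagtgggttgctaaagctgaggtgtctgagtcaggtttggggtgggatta
Ctss: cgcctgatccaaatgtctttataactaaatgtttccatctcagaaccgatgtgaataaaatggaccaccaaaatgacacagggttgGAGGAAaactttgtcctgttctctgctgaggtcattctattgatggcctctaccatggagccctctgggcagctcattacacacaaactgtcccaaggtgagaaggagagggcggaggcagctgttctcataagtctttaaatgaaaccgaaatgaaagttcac
Fcgr1: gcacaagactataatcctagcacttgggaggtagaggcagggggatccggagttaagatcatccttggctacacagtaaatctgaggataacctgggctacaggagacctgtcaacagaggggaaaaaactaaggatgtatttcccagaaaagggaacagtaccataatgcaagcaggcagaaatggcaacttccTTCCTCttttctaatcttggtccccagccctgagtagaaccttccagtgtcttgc
Trem2: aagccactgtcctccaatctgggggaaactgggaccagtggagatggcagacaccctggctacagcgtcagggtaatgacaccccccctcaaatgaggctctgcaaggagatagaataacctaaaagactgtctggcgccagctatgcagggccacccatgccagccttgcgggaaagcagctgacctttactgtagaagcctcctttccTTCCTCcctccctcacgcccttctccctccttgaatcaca

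Library totals were between 21716216 and 42821396 counts in the first set and between 23740769 and 30165765 reads in the second. No first-set library had a count of Pax4, so it could not check the KO label. Nrf1 had 450, 427 and 454 normalised counts in libraries labelled double KD, 499, 476 and 524 in those labelled NRF1 KD and 488 and 444 in WT con, and was not called between libraries labelled NRF1 KD and WT con (log2 fold change 0.10 ± 0.12, adjusted p = 0.618). Nrf1 mRNA was thus not lower under the NRF1 KD label, and its double KD libraries overlapped WT con. It did not bear out the knockdown labels, and each direction below is that of libraries so labelled. A further library stood apart in the first set: Chrng, the fetal acetylcholine receptor subunit that denervated fibres make, had 106, 101 and 121 CPM in PAX4 KO, 84.5, 151 and 155 CPM in denervated WT and 0.197, 16 and 0.105 CPM in innervated WT libraries, which places innervated library 2 above the other two innervated libraries. This gene was chosen after its values were seen.

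Denervated WT muscle held more RNA of the myeloid list than innervated WT muscle did, and muscle labelled NRF1 KD held more than WT con muscle did. In denervated against innervated WT, 25 of 33 members were higher at an adjusted p under 0.05 and 0 were lower, with a median log2 fold change of 1.39 (2.62-fold), where 16.5% of all genes tested were higher and 15.8% lower. In libraries labelled NRF1 KD against WT con, 30 of 32 members were higher and 0 lower, with a median of 1.85 (3.62-fold), where 7.58% of all genes were higher and 3.72% lower. In libraries labelled double KD against WT con, 7 of 32 were higher and 0 lower, with a median of 0.97 (1.96-fold), where 2.39% of all genes were higher and 1.7% lower. The median over all genes lay between 0.00 and 0.05 on the log2 scale in the 6 comparisons.

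No member passed in PAX4 KO against denervated WT or in libraries labelled double KD against those labelled NRF1 KD. In PAX4 KO against denervated WT 0 of 33 members were called by edgeR's quasi-likelihood test, where 0.0186% of all genes were higher and 0% lower. 32 of the 33 estimates were positive, the median was 0.88 (1.83-fold) and the smallest adjusted p was 0.264, for Msr1. An unadjusted p under 0.05 was found for 12 of 33 members and for 2089 of the 16146 genes tested. DESeq2 called 1 member in the same comparison. With no filter on low counts, edgeR called 10 members higher. The shares of all genes just given belong to the main fit, and those of these 2 alternatives are not reported here. In libraries labelled double KD against those labelled NRF1 KD 0 of 32 members were called by limma, where 0.0576% of all genes were lower and 0.0768% higher. All 32 estimates were negative, the median was -0.85 and the smallest adjusted p was 0.0595, for Fcer1g. An unadjusted p under 0.05 was found for 24 of 32 members and for 1756 of the 15624 genes tested. edgeR on the recovered reads called 1 member lower there, with the share of all genes not reported here. The smaller count of members called against WT con under the double KD label is therefore not matched by called differences from the NRF1 KD label. PAX4 KO against innervated WT, which combines genotype and denervation, had 32 of 33 members higher and a median of 2.31 (4.96-fold), where 21.8% of all genes were higher. Comparisons within a set share libraries and are not independent of each other.

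**Figure D1:**
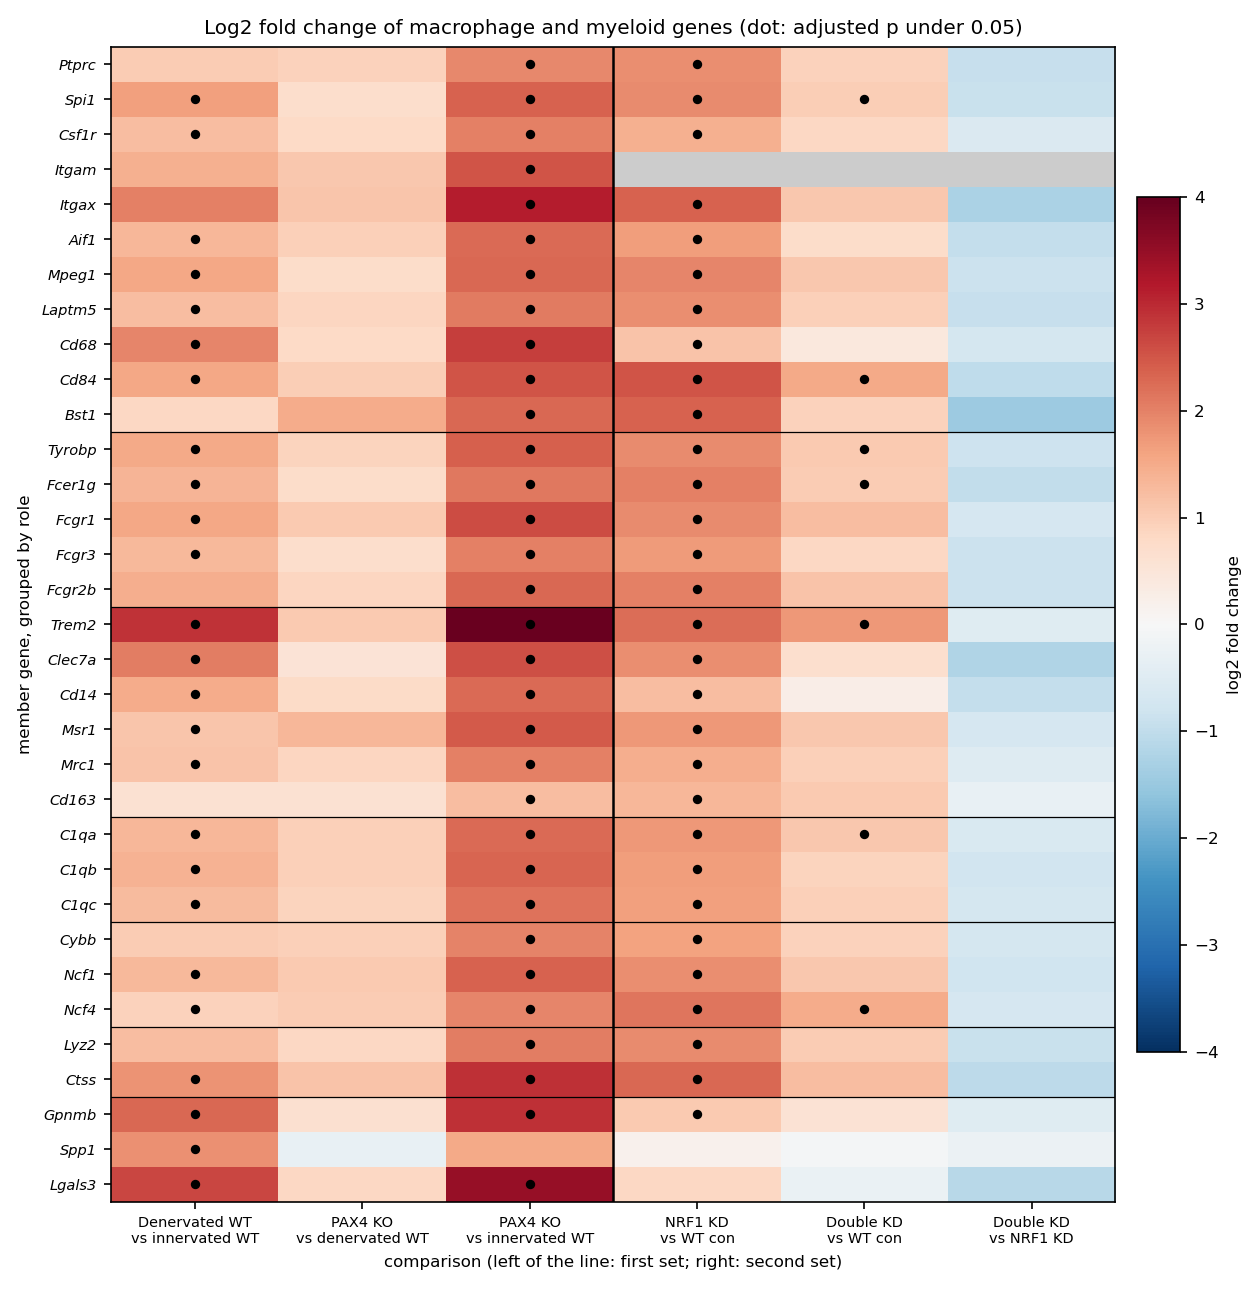
Log2 fold change (colour) of each member (vertical axis, grouped by role) in the 6 comparisons (horizontal axis), with a dot where the adjusted p is under 0.05 and grey where Itgam has no value in the second set. NRF1 KD and double KD are the labels' names. Dots fill 25 of 33 cells for denervated against innervated WT and 30 of 32 for libraries labelled NRF1 KD against WT con, and none for PAX4 KO against denervated WT or double KD against NRF1 KD.

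Among the lineage and identity genes, 7 of 11 rose with denervation in WT muscle, with a median log2 fold change of 1.41. Spi1, which encodes the myeloid master regulator PU.1, had 5.98, 12.9 and 10.7 CPM in PAX4 KO, 8.52, 5.12 and 4.37 CPM in denervated WT and 1.72, 2.88 and 1.12 CPM in innervated WT libraries. Every denervated WT library lay above every innervated one, and Spi1 rose by a log2 fold change of 1.64 ± 0.40 (adjusted p = 0.0111). Csf1r, the receptor for CSF1 and IL-34 on which macrophage survival depends, had 98.2, 129 and 107 CPM in PAX4 KO, 88.1, 51.1 and 54.6 CPM in denervated WT and 31, 39.8 and 12.1 CPM in innervated WT libraries. Its 3 groups did not overlap, with PAX4 KO highest and innervated WT lowest, and it rose with denervation by 1.23 ± 0.36 (adjusted p = 0.0262). Reads of Csf1r may include some of the overlapping gene Hmgxb3, since strand was not stated for the counting. Cd68, a glycoprotein of phagocyte lysosomes, had 38.9, 53.7 and 47.2 CPM in PAX4 KO, 43.9, 18.3 and 18.5 CPM in denervated WT and 4.29, 13.5 and 2.55 CPM in innervated WT libraries, and rose by 1.96 ± 0.53 (adjusted p = 0.0184). Denervated library 1 was more than 2-fold above the other denervated WT libraries for Cd68.

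Further identity genes were also higher in denervated than in innervated WT. For Mpeg1, Laptm5 and Cd84 the PAX4 KO and denervated WT libraries overlapped. Mpeg1, a pore-forming protein of macrophages, had 39.9, 78.5 and 41.9 CPM in PAX4 KO, 51.5, 22.5 and 21.5 CPM in denervated WT and 9.85, 15.4 and 7.18 CPM in innervated WT libraries. Laptm5, a lysosomal membrane protein of leukocytes, had 45.7, 89.4 and 60.8 CPM in PAX4 KO, 52.2, 26.6 and 29.1 CPM in denervated WT and 13.8, 24.1 and 7.74 CPM in innervated WT libraries. Denervated WT lay above innervated WT without overlap for both, with log2 fold changes of 1.55 ± 0.41 for Mpeg1 (adjusted p = 0.0156) and 1.23 ± 0.40 for Laptm5 (adjusted p = 0.0385). Aif1, the calcium-binding protein also called IBA1, had 3.47, 6.37 and 5.65 CPM in PAX4 KO, 3.23, 2.49 and 2.28 CPM in denervated WT and 0.887, 1.59 and 0.662 CPM in innervated WT libraries, and Cd84, a self-binding receptor of the SLAM family, had 8.43, 19.2 and 8.94 CPM in PAX4 KO, 11.2, 3.69 and 3.59 CPM in denervated WT and 1.67, 2.74 and 1.88 CPM in innervated WT libraries. Aif1 rose by 1.32 ± 0.35 (adjusted p = 0.0156) and Cd84 by 1.54 ± 0.49 (adjusted p = 0.0364).

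In the main fit, which leaves out the shared column numbers described near the end, the other 4 identity genes did not pass in denervated against innervated WT. Ptprc, which encodes the pan-leukocyte phosphatase CD45, had 20.2, 41.1 and 18.7 CPM in PAX4 KO, 21.4, 11.2 and 9.68 CPM in denervated WT and 7.83, 7.87 and 5.26 CPM in innervated WT libraries. Its denervated WT libraries all lay above the innervated ones, and the estimate was 1.01 ± 0.37 (adjusted p = 0.0565). The authors' deposited test called Ptprc in this comparison (adjusted p = 0.0174). Itgam and Itgax, the integrin chains CD11b and CD11c, had 5.52, 12.9 and 6.65 CPM in PAX4 KO, 6.07, 3.27 and 2.38 CPM in denervated WT and 1.77, 2.25 and 0.384 CPM in innervated WT libraries and 5.21, 19.1 and 6.77 CPM in PAX4 KO, 9.05, 2.38 and 2.8 CPM in denervated WT and 0.591, 2.17 and 0.593 CPM in innervated WT libraries. The estimates were 1.41 ± 0.56 for Itgam (adjusted p = 0.0796) and 2.02 ± 0.71 for Itgax (adjusted p = 0.0523), again with no overlap of the denervated and innervated WT libraries. Bst1, an ectoenzyme of myeloid and stromal cells, was the lowest member per length, at 1.1, 2 and 1.37 CPM in PAX4 KO, 0.746, 0.364 and 0.471 CPM in denervated WT and 0.246, 0.439 and 0.174 CPM in innervated WT libraries, with counts as low as 5 in a library. Its WT groups overlapped, the estimate was 0.84 ± 0.45 (adjusted p = 0.181), and its reads overlap the much more abundant Fbxl5.

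Against denervated WT, PAX4 KO muscle gave a positive estimate for each of the 11 identity genes, from 0.71 for Spi1 to 1.48 for Bst1, and none passed. Bst1 had the largest estimate of the whole list at 1.48 ± 0.40 (adjusted p = 0.274), and its 3 PAX4 KO libraries lay above its 3 denervated WT libraries. The same absence of overlap held for Csf1r, at 0.79 ± 0.36 (adjusted p = 0.387), and Aif1, at 0.95 ± 0.32 (adjusted p = 0.312). Over the whole list, PAX4 KO libraries lay above denervated WT without overlap for 11 of 33 members, where 9.69% of all genes did so. For denervated against innervated WT that count was 29 of 33, where it held for 23.9% of all genes.

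4 of the 5 adaptors and Fc receptors rose with denervation in WT muscle. Tyrobp, the ITAM adaptor DAP12 that carries the TREM2 signal, had 20.2, 38.1 and 27.3 CPM in PAX4 KO, 22.3, 10.8 and 13.4 CPM in denervated WT and 4.93, 8.22 and 2.86 CPM in innervated WT libraries. Fcer1g, the ITAM-bearing common gamma chain of Fc receptors and of several lectins, had 16.2, 29.7 and 16.8 CPM in PAX4 KO, 19.9, 6.29 and 11.5 CPM in denervated WT and 5.42, 5.78 and 3.42 CPM in innervated WT libraries. Tyrobp rose by 1.52 ± 0.39 (adjusted p = 0.0136) and Fcer1g by 1.37 ± 0.40 (adjusted p = 0.0247), each without overlap of the WT groups. Fcgr1, the high-affinity IgG receptor, had 3.24, 5.49 and 8.65 CPM in PAX4 KO, 3.44, 2.52 and 2.41 CPM in denervated WT and 0.936, 1.32 and 0.558 CPM in innervated WT libraries. Fcgr3, a low-affinity activating IgG receptor, had 24.7, 48 and 25.1 CPM in PAX4 KO, 30, 11.2 and 18.8 CPM in denervated WT and 10.8, 9.49 and 4.15 CPM in innervated WT libraries. Both were higher in denervated WT, Fcgr1 by 1.56 ± 0.40 (adjusted p = 0.0144) and Fcgr3 by 1.30 ± 0.42 (adjusted p = 0.0389).

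The inhibitory IgG receptor Fcgr2b had 27.9, 76.5 and 30.4 CPM in PAX4 KO, 41.5, 13.6 and 18.9 CPM in denervated WT and 9.11, 14 and 3.91 CPM in innervated WT libraries. Denervated library 2 fell just below innervated library 2, and the estimate of 1.45 ± 0.55 did not pass (adjusted p = 0.0673). Fcgr2b, Fcgr3 and Fcgr4 are close paralogs on chromosome 1 whose reads may be shared. Fcgr4, no member and named after its values were seen, rose by 1.43 ± 0.39 (adjusted p = 0.0189). PAX4 KO estimates against denervated WT lay between 0.70 for Fcgr3 and 1.06 for Fcgr1, with 0 of 5 passing.

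5 of the 6 pattern recognition and scavenger receptors rose with denervation in WT muscle, and the group held both the largest and the smallest estimate of the list. Trem2, a lipid receptor of phagocytes that signals through Tyrobp, had 4.65, 11.1 and 10.3 CPM in PAX4 KO, 7.29, 2.29 and 2.91 CPM in denervated WT and 0.246, 0.959 and 0.384 CPM in innervated WT libraries. No denervated library, KO or WT, was as low as any innervated one, and Trem2 rose in denervated WT by 2.88 ± 0.59 (adjusted p = 0.00473), or 7.36-fold. Its count in innervated library 1 was 5. Clec7a, the beta-glucan receptor Dectin-1, had 4.54, 11.5 and 4.2 CPM in PAX4 KO, 7.13, 4.14 and 2.54 CPM in denervated WT and 1.13, 1.51 and 0.662 CPM in innervated WT libraries, and rose by 2.05 ± 0.51 (adjusted p = 0.0123). Cd14, the lipopolysaccharide co-receptor, had 9.67, 23.3 and 14.5 CPM in PAX4 KO, 11.3, 10.4 and 6.41 CPM in denervated WT and 3.69, 5.26 and 0.941 CPM in innervated WT libraries, and rose by 1.49 ± 0.50 (adjusted p = 0.0433). Innervated library 3 was the lowest library for Cd14.

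Msr1, a class A scavenger receptor, had 5.24, 6 and 8.63 CPM in PAX4 KO, 3.59, 2.1 and 2.17 CPM in denervated WT and 1.13, 1.75 and 0.732 CPM in innervated WT libraries. It rose in denervated WT by 1.10 ± 0.35 (adjusted p = 0.0354), and its PAX4 KO libraries lay above its denervated WT libraries with an estimate of 1.34 ± 0.33, which had the smallest p of the list in that comparison and did not pass (adjusted p = 0.264). Mrc1, the mannose receptor CD206, had 73.3, 103 and 83.8 CPM in PAX4 KO, 64.6, 40.5 and 36.9 CPM in denervated WT and 23.2, 30.1 and 10.8 CPM in innervated WT libraries. Its 3 groups did not overlap, and it rose in denervated WT by 1.15 ± 0.33 (adjusted p = 0.0237). Cd163, the haemoglobin scavenger receptor of resident macrophages, had 38.3, 51.6 and 36.7 CPM in PAX4 KO, 43.6, 19.1 and 20.5 CPM in denervated WT and 25.5, 19.3 and 9.8 CPM in innervated WT libraries. The denervated and innervated WT libraries of Cd163 overlapped, and the estimate was 0.62 ± 0.37 (adjusted p = 0.226), the smallest of the 33.

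All 3 chains of C1q, the complement recognition molecule that macrophages secrete as a joint product of neighbouring genes on chromosome 4, rose together. C1qa had 70, 107 and 98.5 CPM in PAX4 KO, 60, 39.5 and 44.5 CPM in denervated WT and 21.3, 26.8 and 9.24 CPM in innervated WT libraries. C1qb had 63.2, 92.8 and 106 CPM in PAX4 KO, 64.6, 35.3 and 35.5 CPM in denervated WT and 18.8, 27 and 5.79 CPM in innervated WT libraries, and C1qc had 60.5, 80.5 and 89.5 CPM in PAX4 KO, 54.8, 33 and 37 CPM in denervated WT and 18.2, 26.8 and 6.07 CPM in innervated WT libraries. The WT groups did not overlap for any chain, with innervated library 3 lowest in each. Denervation raised C1qa by 1.33 ± 0.33 (adjusted p = 0.0123), C1qb by 1.39 ± 0.45 (adjusted p = 0.0392) and C1qc by 1.28 ± 0.41 (adjusted p = 0.0374). The authors' deposited test did not call C1qb (adjusted p = 0.0561). In PAX4 KO the estimates against denervated WT were 0.94 ± 0.32, 0.95 ± 0.44 and 0.88 ± 0.40 in the order C1qa, C1qb and C1qc, with adjusted p of 0.315, 0.397 and 0.393.

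Of the phagocyte oxidase genes, 2 of 3 rose with denervation. Cybb, the catalytic membrane subunit gp91phox, had 16.5, 29 and 20.3 CPM in PAX4 KO, 16.1, 9.76 and 8.38 CPM in denervated WT and 4.73, 9.24 and 2.65 CPM in innervated WT libraries. Denervated library 3 fell below innervated library 2, and the estimate of 1.03 ± 0.41 did not pass (adjusted p = 0.0773). The cytosolic organiser Ncf1 (p47phox) had 11.8, 23.9 and 12.7 CPM in PAX4 KO, 11.4, 5.18 and 6.67 CPM in denervated WT and 2.66, 4.85 and 1.85 CPM in innervated WT libraries, and Ncf4 (p40phox) had 4.09, 6.7 and 5.28 CPM in PAX4 KO, 3.47, 2.27 and 2.12 CPM in denervated WT and 0.936, 1.86 and 1.29 CPM in innervated WT libraries. Ncf1 rose by 1.29 ± 0.41 (adjusted p = 0.0363) and Ncf4 by 0.92 ± 0.31 (adjusted p = 0.0441), and reads of Ncf1 may include some of its overlapping neighbour Gtf2ird2. For all 3 genes the PAX4 KO libraries lay above the denervated WT libraries, with estimates of 0.94 ± 0.39 for Cybb, 1.05 ± 0.39 for Ncf1 and 1.03 ± 0.29 for Ncf4 and adjusted p of 0.365, 0.331 and 0.283.

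Of the 2 lysosomal enzymes, the protease Ctss passed and the lysozyme Lyz2 did not. Ctss, which encodes cathepsin S of the antigen-processing pathway, had 46.4, 115 and 67.5 CPM in PAX4 KO, 56.9, 23.6 and 23.5 CPM in denervated WT and 7.78, 16 and 6.07 CPM in innervated WT libraries. It rose by 1.79 ± 0.47 (adjusted p = 0.016), without overlap of the WT groups. Lyz2 was the most abundant member, at 282, 654 and 335 CPM in PAX4 KO, 400, 161 and 161 CPM in denervated WT and 99.7, 155 and 52.2 CPM in innervated WT libraries. The denervated WT libraries lay above the innervated ones by a narrow margin, and the estimate was 1.23 ± 0.47 (adjusted p = 0.0707). Its near-identical paralog Lyz1 had 8.06, 17.6 and 2.98 CPM in PAX4 KO, 22.1, 3.38 and 4.76 CPM in denervated WT and 9.41, 5.02 and 2.86 CPM in innervated WT libraries and an estimate of 0.83 ± 0.77 (adjusted p = 0.443), and reads may be shared between these copies.

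The 3 secreted or lipid-laden-state genes had the largest median estimate of the role groups for denervation, 2.29, and all 3 rose. Gpnmb, a glycoprotein of lysosome-loaded macrophages, had 50.6, 36.6 and 36 CPM in PAX4 KO, 34.1, 16.7 and 28.1 CPM in denervated WT and 4.14, 9.68 and 1.99 CPM in innervated WT libraries. Lgals3, which encodes the sugar-binding protein galectin-3, had 61.4, 104 and 75 CPM in PAX4 KO, 34.1, 18.3 and 83.5 CPM in denervated WT and 5.32, 12 and 3.84 CPM in innervated WT libraries. Gpnmb rose by 2.29 ± 0.46 (adjusted p = 0.00426) and Lgals3 by 2.66 ± 0.56 (adjusted p = 0.00534), and denervated library 3 had the highest WT value of Lgals3. Spp1, which encodes the secreted matrix protein osteopontin and is also made by muscle precursors, had 33.9, 80.9 and 44.8 CPM in PAX4 KO, 86, 33.7 and 78 CPM in denervated WT and 3.5, 25.2 and 26.3 CPM in innervated WT libraries. It rose by 1.83 ± 0.61 in denervated WT (adjusted p = 0.0423), and the authors' deposited test did not call it (adjusted p = 0.0704). Spp1 was the single member whose estimate was negative in PAX4 KO against denervated WT, at -0.31 ± 0.59 (adjusted p = 0.846), and the single one not called in PAX4 KO against innervated WT (adjusted p = 0.069).

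**Figure D2:**
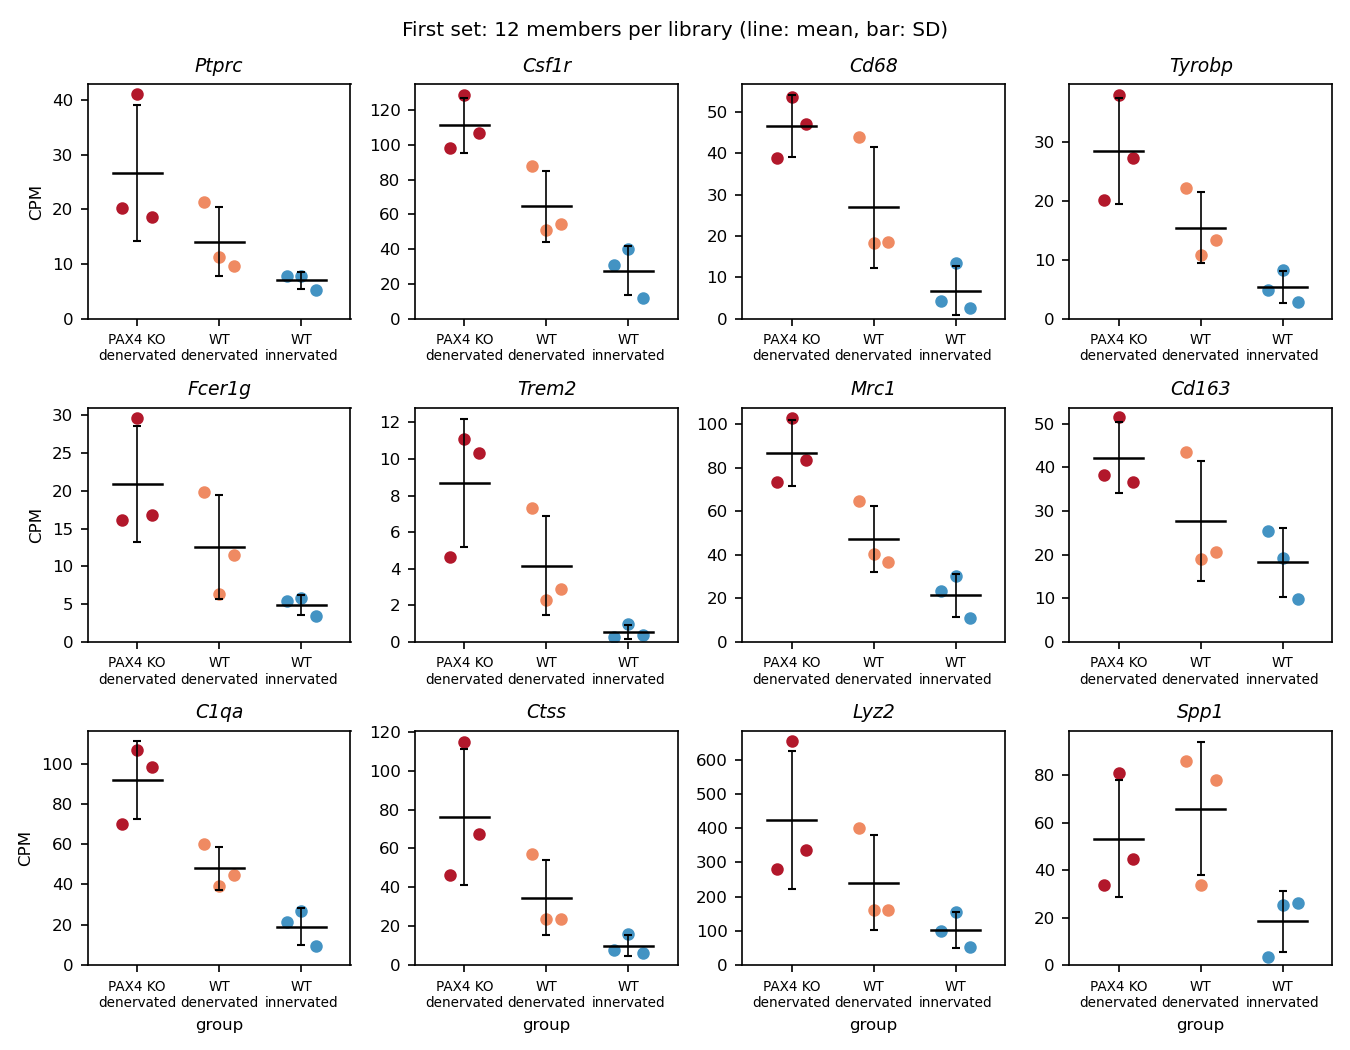
CPM (vertical axes, starting at 0) of 12 members in the first set, with PAX4 KO denervated, WT denervated and WT innervated libraries from left to right (points), the group mean (line) and the SD (bar, n = 3). For Csf1r, C1qa and Mrc1 the 3 groups do not overlap, while for Cd163 the WT groups overlap and for Spp1 the PAX4 KO libraries lie within the spread of denervated WT.

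The call for WT denervation depended on single libraries. 9 members were called without denervated library 1, 7 without innervated library 1 and 9 without innervated library 3. It stood at 27 without innervated library 2, which carries Chrng, and at 23 without that library and denervated library 1 together. The shares of all genes called in these refits are not reported here.

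Per kilobase of exon, Lyz2 stood first in denervated WT, at 183 CPM per kb (SD 105, n = 3), against 77.7 (SD 39.1, n = 3) in innervated WT. C1qa followed at 46.2 (SD 10.3) against 18.4 (SD 8.64), then C1qb at 41.5 (SD 15.5) against 15.8 (SD 9.84), and Spp1 at 40 (SD 17.1) against 11.1 (SD 7.81). The SDs of C1qa, C1qb and Spp1 overlap, so their order in denervated WT is not resolved. Ptprc, Msr1 and Bst1 ended the order, at 0.768 (SD 0.347), 0.413 (SD 0.132) and 0.159 (SD 0.0595) CPM per kb in denervated WT. Lgals3 stood at place 6 in denervated WT and at place 13 in innervated WT.

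In the second set, all 10 identity genes with a value were higher in libraries labelled NRF1 KD than in WT con. Cd84 had 189, 170 and 225 normalised counts in libraries labelled double KD, 240, 499 and 499 in those labelled NRF1 KD and 66.4 and 67.9 in WT con. Its 3 groups did not overlap, and it was higher under the NRF1 KD label by 2.52 ± 0.29 on the log2 scale (adjusted p = 0.00219), the largest estimate of the list. Spi1 had 375, 250 and 300 normalised counts in libraries labelled double KD, 411, 649 and 690 in those labelled NRF1 KD and 153 and 152 in WT con, and was higher by 1.89 ± 0.23 (adjusted p = 0.00246). Csf1r had 2468, 1434 and 1222 normalised counts in libraries labelled double KD, 1577, 3026 and 3060 in those labelled NRF1 KD and 761 and 1092 in WT con, and was higher by 1.42 ± 0.33 (adjusted p = 0.0227). Ptprc had 521, 358 and 351 normalised counts in libraries labelled double KD, 502, 876 and 1012 in those labelled NRF1 KD and 172 and 261 in WT con. It had not passed with denervation in the main fit here, but the authors' deposited test called it there (adjusted p = 0.0174). It was higher by 1.85 ± 0.30 (adjusted p = 0.0057), with every library labelled NRF1 KD above both WT con libraries.

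Cd68, among the larger identity changes with denervation, had 1045, 944 and 985 normalised counts in libraries labelled double KD, 1178, 2097 and 1710 in those labelled NRF1 KD and 738 and 735 in WT con and the smallest identity estimate under the NRF1 KD label, 1.13 ± 0.19 (adjusted p = 0.00669). Itgax had 129, 102 and 85.9 normalised counts in libraries labelled double KD, 146, 334 and 335 in those labelled NRF1 KD and 53.3 and 44.6 in WT con, with an estimate of 2.36 ± 0.35 (adjusted p = 0.00421). Mpeg1 had 1090, 953 and 838 normalised counts in libraries labelled double KD, 903, 2248 and 2540 in those labelled NRF1 KD and 371 and 547 in WT con, with 1.94 ± 0.36 (adjusted p = 0.00995). Library 1 of the NRF1 KD label was the lowest of its group for all 32 members, and for Csf1r and Mpeg1 it lay within the range of the double KD libraries. Laptm5, Aif1 and Bst1 were higher by 1.86 ± 0.25, 1.67 ± 0.33 and 2.37 ± 0.34, with adjusted p of 0.00322, 0.0115 and 0.00414. Bst1 had 48.4, 47.5 and 30.4 normalised counts in libraries labelled double KD, 83.5, 138 and 131 in those labelled NRF1 KD and 26.1 and 17.5 in WT con, the lowest counts of the list.

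All 5 adaptors and Fc receptors were higher under the NRF1 KD label. Fcer1g had 544, 488 and 504 normalised counts in libraries labelled double KD, 760, 1146 and 1187 in those labelled NRF1 KD and 258 and 242 in WT con. Its 3 groups did not overlap, with library 1 lowest among those labelled NRF1 KD, and its 2.01 ± 0.18 (adjusted p = 0.000726) carried the smallest p of the list in the NRF1 KD comparison. Fcer1g was also higher under the double KD label than in WT con, by 1.03 ± 0.18 (adjusted p = 0.0163). Between the double KD and NRF1 KD labels it differed by -0.98 ± 0.16, just short of the threshold (adjusted p = 0.0595). Tyrobp had 684, 501 and 448 normalised counts in libraries labelled double KD, 672, 1089 and 1207 in those labelled NRF1 KD and 219 and 301 in WT con, and was higher by 1.90 ± 0.26 under the NRF1 KD label (adjusted p = 0.00335) and by 1.06 ± 0.26 under the double KD label (adjusted p = 0.0497), both against WT con. The Fc receptors Fcgr1, Fcgr2b and Fcgr3 were higher under the NRF1 KD label by 1.90 ± 0.39, 2.02 ± 0.32 and 1.69 ± 0.30, with adjusted p of 0.0134, 0.00541 and 0.00827. Fcgr2b had 1054, 773 and 701 normalised counts in libraries labelled double KD, 910, 1977 and 1959 in those labelled NRF1 KD and 310 and 454 in WT con.

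All 6 pattern recognition and scavenger receptors were higher under the NRF1 KD label, including Cd163, which had not passed with denervation. Trem2 had 273, 254 and 264 normalised counts in libraries labelled double KD, 196, 442 and 588 in those labelled NRF1 KD and 55.5 and 110 in WT con. It was higher by 2.23 ± 0.41 under the NRF1 KD label (adjusted p = 0.00903) and by 1.74 ± 0.41 under the double KD label (adjusted p = 0.0413), the largest estimate of the double KD comparison with WT con. The double KD and NRF1 KD libraries of Trem2 overlapped and differed by -0.49 ± 0.36 (adjusted p = 0.645). Cd163 had 1007, 544 and 469 normalised counts in libraries labelled double KD, 576, 937 and 880 in those labelled NRF1 KD and 201 and 471 in WT con, and was higher under the NRF1 KD label by 1.34 ± 0.38 (adjusted p = 0.0494). The WT con libraries differed by more than 2-fold for Cd163. Its call lay just under the threshold, and the authors' own deposited test did not call it (adjusted p = 0.0982). Clec7a had 155, 107 and 108 normalised counts in libraries labelled double KD, 181, 357 and 345 in those labelled NRF1 KD and 65.3 and 89.2 in WT con, with 1.87 ± 0.31 under the NRF1 KD label (adjusted p = 0.00641) and 0.66 ± 0.31 under the double KD label (adjusted p = 0.255). Msr1, Mrc1 and Cd14 were higher under the NRF1 KD label by 1.73 ± 0.38, 1.46 ± 0.27 and 1.22 ± 0.33, with adjusted p of 0.0172, 0.00963 and 0.0422.

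The C1q chains, the oxidase genes and the lysosomal enzymes were also higher throughout under the NRF1 KD label. C1qa had 2522, 1711 and 1550 normalised counts in libraries labelled double KD, 2077, 3576 and 3287 in those labelled NRF1 KD and 788 and 986 in WT con, C1qb had 2360, 1633 and 1435 normalised counts in libraries labelled double KD, 1946, 3842 and 3579 in those labelled NRF1 KD and 843 and 1058 in WT con, and C1qc had 2012, 1439 and 1085 normalised counts in libraries labelled double KD, 1671, 3032 and 2634 in those labelled NRF1 KD and 707 and 825 in WT con. The estimates were 1.72 ± 0.25, 1.66 ± 0.28 and 1.63 ± 0.27 for C1qa, C1qb and C1qc, with adjusted p of 0.00414, 0.00669 and 0.00621. Ncf4 had 169, 167 and 165 normalised counts in libraries labelled double KD, 199, 248 and 374 in those labelled NRF1 KD and 70.7 and 50.4 in WT con, and was higher by 2.13 ± 0.26 under the NRF1 KD label (adjusted p = 0.00246) and by 1.47 ± 0.26 under the double KD label (adjusted p = 0.0179). Ncf1 and Cybb were higher by 1.87 ± 0.30 and 1.61 ± 0.36 under the NRF1 KD label, with adjusted p of 0.00568 and 0.0192. Ctss had 1790, 1353 and 1313 normalised counts in libraries labelled double KD, 1571, 4480 and 4139 in those labelled NRF1 KD and 492 and 803 in WT con, and Lyz2 had 7584, 6266 and 4841 normalised counts in libraries labelled double KD, 6473, 13577 and 16698 in those labelled NRF1 KD and 2514 and 3752 in WT con. Both had library 1 of the NRF1 KD label within the range of the double KD libraries, and were higher under the NRF1 KD label by 2.29 ± 0.39 for Ctss (adjusted p = 0.0066) and 1.89 ± 0.35 for Lyz2 (adjusted p = 0.00919).

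The secreted or lipid-laden-state genes, which had the largest median for denervation, had the smallest for the NRF1 KD label, 0.82, with 1 of 3 called. Gpnmb had 869, 751 and 766 normalised counts in libraries labelled double KD, 877, 1051 and 1460 in those labelled NRF1 KD and 442 and 638 in WT con, and was higher by 1.05 ± 0.21 (adjusted p = 0.0122). Lgals3 had 1646, 2170 and 2070 normalised counts in libraries labelled double KD, 2883, 5073 and 4964 in those labelled NRF1 KD and 2827 and 1984 in WT con. Its estimate under the NRF1 KD label was 0.82 ± 0.24 (adjusted p = 0.0543), and its double KD libraries lay below all those labelled NRF1 KD, by -1.10 ± 0.22 (adjusted p = 0.0939). Spp1 had 1663, 4259 and 5535 normalised counts in libraries labelled double KD, 3604, 4043 and 4288 in those labelled NRF1 KD and 3362 and 3773 in WT con. Its groups overlapped in each comparison of the second set, with estimates of 0.16 ± 0.38 under the NRF1 KD label (adjusted p = 0.835) and -0.07 ± 0.38 under the double KD label (adjusted p = 0.941) against WT con.

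**Figure D3:**
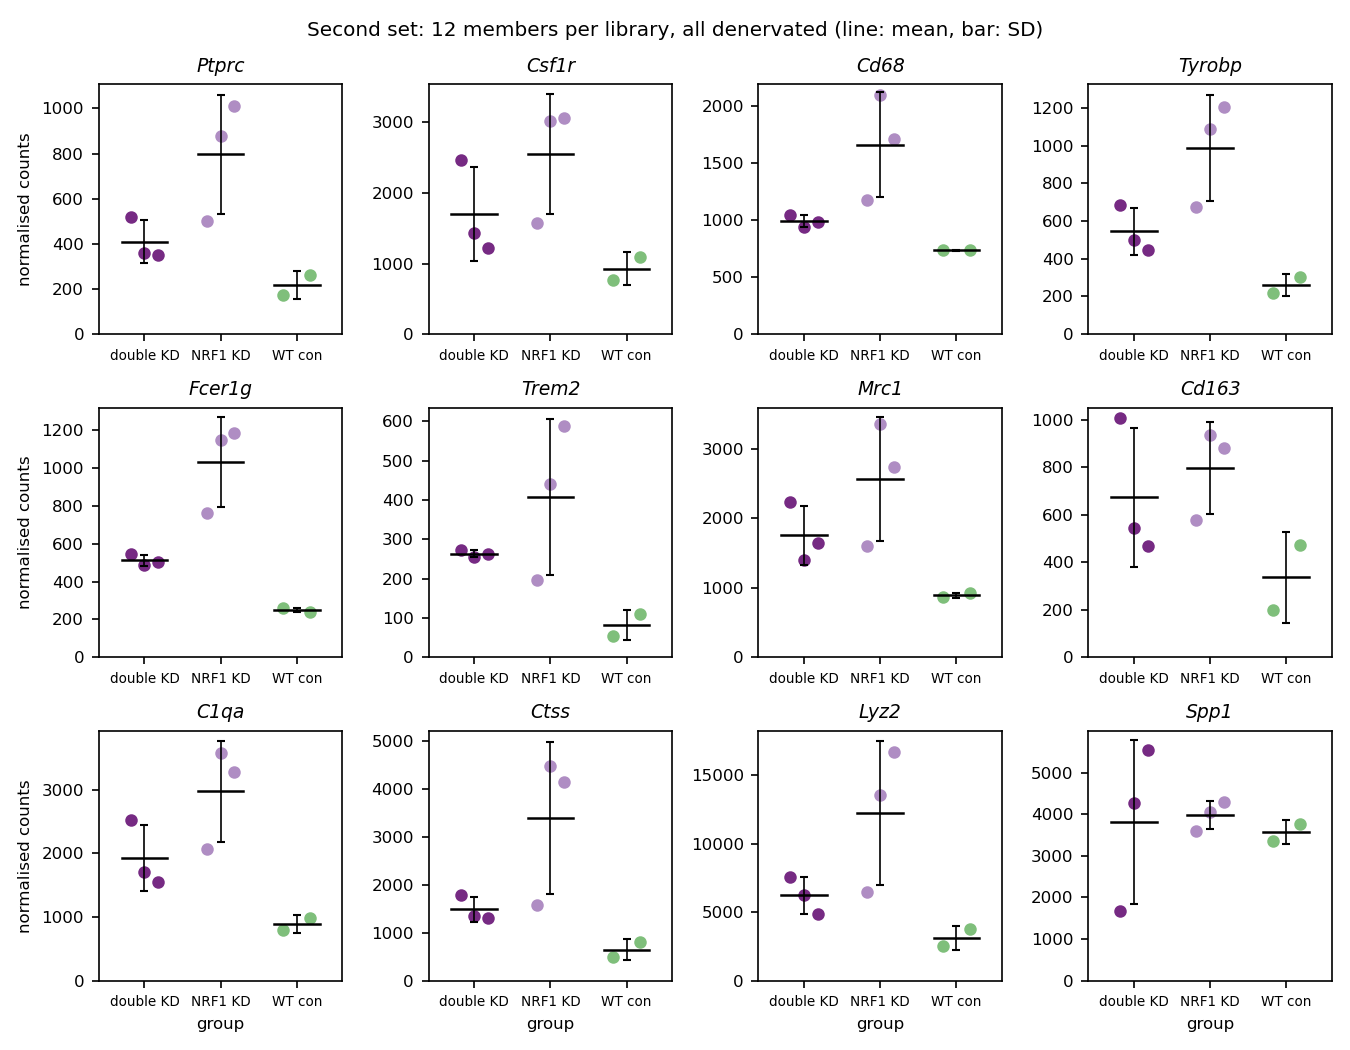
Normalised counts (vertical axes, starting at 0) of 12 members in the second set, with libraries labelled double KD, labelled NRF1 KD and WT con from left to right (points), the group mean (line) and the SD (bar, n = 3, 3 and 2). Every library labelled NRF1 KD lies above WT con for all 12 genes but Spp1, and library 1 of that label is the lowest of its group.

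Besides Fcer1g, Tyrobp, Trem2 and Ncf4, the members called under the double KD label against WT con were Cd84 at 1.51 ± 0.29 (adjusted p = 0.024), C1qa at 1.09 ± 0.25 (adjusted p = 0.0376) and Spi1 at 0.99 ± 0.23 (adjusted p = 0.0443). Libraries labelled double KD lay above WT con without overlap for 28 of 32 members, where 18.1% of all genes did so, and below those labelled NRF1 KD without overlap for 11 of 32, where 8.28% did so. Libraries labelled NRF1 KD lay above WT con without overlap for 31 of 32, where 22.5% did so. The count of 7 moved to 0 without WT con library 2 or without double KD library 2, to 3 without double KD library 1 or 3 or NRF1 KD library 2, to 4 without NRF1 KD library 3 or WT con library 3, and to 18 without NRF1 KD library 1. The count of 30 for the NRF1 KD label moved to 15 without WT con library 2. Without NRF1 KD library 1, 16 members were lower under the double KD label than under the NRF1 KD label, against 0 with it. The shares of all genes called in these refits are not reported here.

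The members moved as a block between libraries of one group. Denervated WT library 1 had the highest value of its group for 32 of 33 members, PAX4 KO library 2 for 28 and innervated library 2 for 30, while innervated library 3 was lowest for 28. Among libraries of the second set, double KD library 1 was highest of its group for 28 of 32 members, and NRF1 KD library 1 lowest for all 32. Summed over the members, the level was between 1201 and 2198 CPM in PAX4 KO, between 648 and 1372 CPM in denervated WT and between 195 and 525 CPM in innervated WT libraries. Under the second set's scaling the sum was between 29703 and 36590 normalised counts under the double KD label, between 34906 and 67192 under the NRF1 KD label and between 17851 and 21343 in WT con. The median member stood at 3.76, 1.94 and 2.14 times the innervated mean in denervated WT libraries 1, 2 and 3, so that library 1 was above PAX4 KO library 1, at 3.56.

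**Figure D4:**
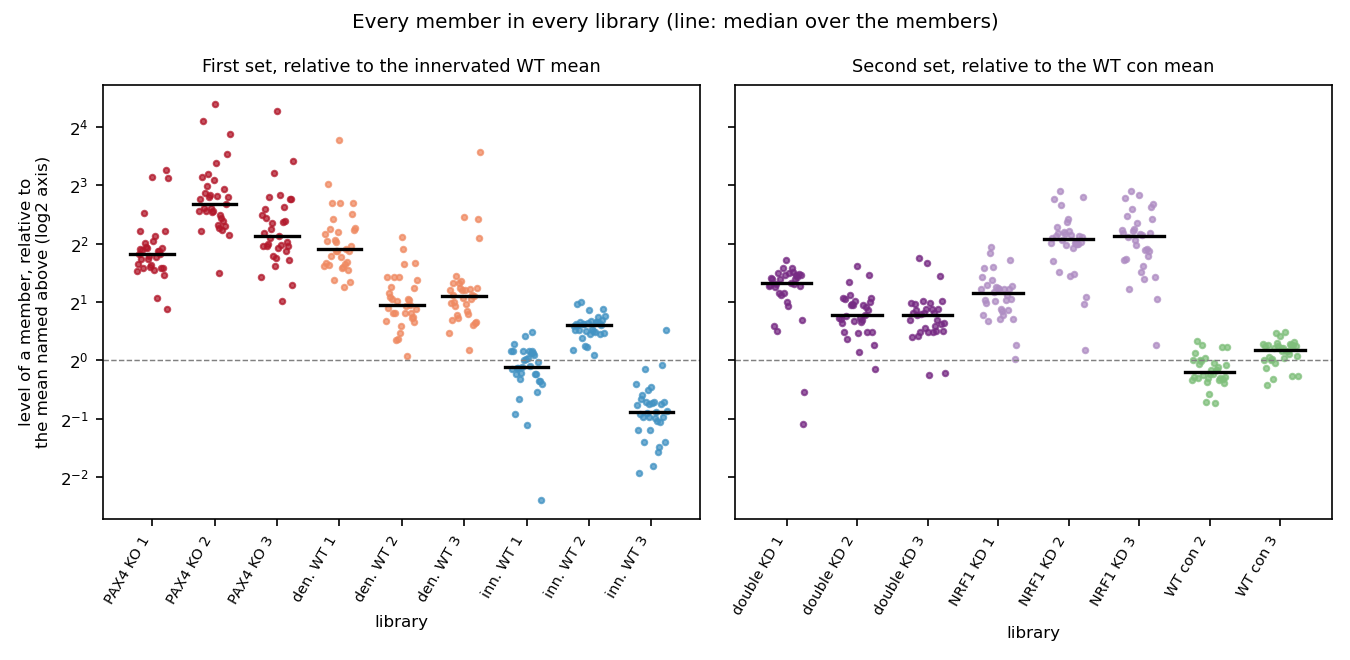
Level of each member (points) in each library (horizontal axis), relative to the mean of the innervated WT libraries (left panel) or of the WT con libraries (right panel), on a log2 axis, with the median over members (line). PAX4 KO library 2, denervated WT library 1 and innervated WT library 2 lie above the other libraries of their groups, and NRF1 KD library 1 lies below the other 2 of its label.

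The members' proportions to each other were read within each library. Each log2 level was set against the mean of the members of the same library, which removes the shared level. A small constant was added to each value before the log2, which raises the lowest values most. Laptm5 then lay between 1.30 and 1.40 in PAX4 KO, between 1.36 and 1.40 in denervated WT and between 1.45 and 1.68 in innervated WT libraries. That range was narrow, with the innervated libraries highest. Tyrobp lay between 0.13 and 0.22 in PAX4 KO, between 0.10 and 0.25 in denervated WT and between 0.05 and 0.15 in innervated WT. Its groups overlapped. Trem2 lay between -1.97 and -1.17 in PAX4 KO, between -2.08 and -1.46 in denervated WT and between -3.71 and -2.57 in innervated WT, so that its share of the list was higher in every denervated library. Lgals3 was between 1.61 and 1.73 in PAX4 KO, between 0.75 and 2.88 in denervated WT and between 0.25 and 0.68 in innervated WT. Cd163 moved the other way, with means of 0.77 in PAX4 KO, 0.96 in denervated WT and 1.88 in innervated WT, and its lowest innervated library, at 1.37, lay above every denervated one. Bst1 lay between -4.02 and -3.95 in PAX4 KO, between -4.59 and -4.31 in denervated WT and between -3.80 and -3.38 in innervated WT. Innervated Bst1 was only 0.246, 0.439 and 0.174 CPM, which the added constant raises. Its place against PAX4 KO is therefore not resolved. In the second set Lgals3 lay between 1.34 and 2.10 under the double KD label, between 2.06 and 2.19 under the NRF1 KD label and between 2.63 and 3.44 in WT con. These shares are descriptions with no test.

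Genes that work with the members were read from other lists. Of 11 kinases and linkers that act downstream of the ITAM adaptors through SYK, 3 rose in denervated against innervated WT, with a median of 0.85: Blnk by 2.01 (adjusted p = 0.00183), Vav1 by 1.51 (adjusted p = 0.019) and Btk by 1.07 (adjusted p = 0.0487). All 11 were higher under the NRF1 KD label than in WT con, with a median of 1.49, from 0.87 for the linker Blnk to 2.63 for the Src-family kinase Fgr (adjusted p = 0.00433). Under the double KD label 1 of 11 was, Vav1, a guanine nucleotide exchange factor, at 1.23 (adjusted p = 0.0443). In PAX4 KO against denervated WT 0 of 11 passed, with a median of 0.78. Rac2, the small GTPase of the phagocyte oxidase, rose with denervation by 1.08 (adjusted p = 0.0173) and was higher under the NRF1 KD label by 1.70 (adjusted p = 0.00531).

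Of 9 further complement genes, 3 rose with denervation in WT, among them C4b, a C4 gene, by 1.99 (adjusted p = 0.00292), and Serping1, the C1 inhibitor, by 0.61 (adjusted p = 0.0216). Under the NRF1 KD label 3 of 9 were higher, with the anaphylatoxin receptor C5ar1 at 2.14 (adjusted p = 0.00421) and C3 at 2.16-fold (adjusted p = 0.0171). Of 12 lysosomal genes that macrophages hold in abundance, 6 rose with denervation, among them Lgmn, which encodes legumain, at 1.58 (adjusted p = 0.000934) and Ctsl, which encodes cathepsin L, at 1.57 (adjusted p = 0.00349). Under the NRF1 KD label 6 of 12 were higher, among them Npc2, a cholesterol carrier, at 0.95 (adjusted p = 0.00416) and Ctsz, which encodes cathepsin Z, at 0.78 (adjusted p = 0.00667), while Ctsl was at -0.26 (adjusted p = 0.636).

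Growth factors and receptors of the lineage gave 1 higher and 1 lower of 6 tested with denervation, the receptor Cx3cr1 at 1.28 (adjusted p = 0.0363) and the CSF1R ligand Il34 at -0.64 (adjusted p = 0.028). Csf1, the other ligand, had 18.9, 26.1 and 23.1 CPM in PAX4 KO, 18.7, 13.1 and 13.9 CPM in denervated WT and 16.4, 19.3 and 11.8 CPM in innervated WT libraries, with an estimate of -0.05 ± 0.20 (adjusted p = 0.861). Under the NRF1 KD label 3 of 6 were higher, among them Csf2rb, the shared beta chain, at 1.81 (adjusted p = 0.00211). Myeloid transcription factors were split, with 3 of 9 higher and 3 lower with denervation. Runx1, which denervated fibres also make, rose by 3.86 (adjusted p = 0.00203) and Cebpa 2.15-fold (adjusted p = 0.00238), while Maf fell by 2.23 (adjusted p = 0.000682). Under the NRF1 KD label 5 of 8 were higher, with Irf5 at 1.32 (adjusted p = 0.00276), and Runx1 was lower at -0.83 (adjusted p = 0.0165).

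Markers of resident macrophages and of monocytes were counted apart, and the 2 sets were not compared by a test. Of 10 resident markers, 1 rose and 1 fell with denervation in WT, Cbr2, a carbonyl reductase, at 0.80 (adjusted p = 0.0372) and Gas6, a TAM receptor ligand, at -0.56 (adjusted p = 0.0161), with 7 of 10 estimates positive and a median of 0.58. Under the NRF1 KD label 8 of 10 were higher, among them the lectin Clec10a at 1.83 (adjusted p = 0.00488) and Gas6 at 0.92 (adjusted p = 0.00736), and under the double KD label 3 of 10 were. Of 7 monocyte markers, 1 rose with denervation, the chemokine receptor Ccr2 at 1.94 (adjusted p = 0.0371), and 1 fell, Nr4a1, an immediate-early gene also expressed by fibres, at -2.48 (adjusted p = 0.000635). Under the NRF1 KD label 6 of 7 were higher, among them Plac8 at 2.30 (adjusted p = 0.00234) and Chil3 at 3.92 (adjusted p = 0.00416). Chil3 had only 1.09 and 2.91 normalised counts in WT con, so its estimate rests on values near the floor. Plac8 had 74.7, 58.3 and 67.4 normalised counts in libraries labelled double KD, 271, 146 and 208 in those labelled NRF1 KD and 38.1 and 42.7 in WT con, and was the single one of these 7 to differ between the double KD and NRF1 KD labels, at -1.59 (adjusted p = 0.0465).

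Markers of other cell types changed in both directions in each set, and their part in the results was not tested. With denervation in WT, 1 of 7 neutrophil markers tested rose, the calgranulin S100a8 at 5.66 (adjusted p = 0.000721). The summed neutrophil list was between 25.8 and 135 CPM in denervated WT and between 6.73 and 12.2 CPM in innervated WT. S100a8 carried this difference. Without it, in a sum taken after the values were seen, the list was between 5.76 and 7.99 CPM in denervated WT and between 6.14 and 10.2 CPM in innervated WT. 3 of 6 NK cell markers rose, with Nkg7 at 1.74 (adjusted p = 0.00324), while 2 of 6 B cell markers fell and 0 of 7 mast cell markers passed. Of 9 T cell markers 6 were tested and 1 fell, Cd3e at -2.08 (adjusted p = 0.00515). The other 5 T cell estimates were positive, and the median of the 6 was 0.93. Of 8 dendritic cell markers 1 fell, Zbtb46 at -0.55 (adjusted p = 0.0266). The other 7 dendritic cell estimates were positive, and the median of the 8 was 0.57.

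Tissue markers of denervated WT muscle fell more often than they rose. This held for 7 of 8 endothelial, 6 of 6 smooth muscle and pericyte, 4 of 7 Schwann cell and 3 of 5 adipocyte markers, all of them lower. Of 8 muscle fibre markers 3 fell and 1 rose, and their summed level was between 59489 and 67492 CPM in denervated WT and between 89642 and 110475 CPM in innervated WT. CPM are shares of a library, and the part of this fall in the members' levels was not tested. 2 of 4 satellite cell markers rose, and of 8 fibroblast markers 1 rose and 1 fell.

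In the second set, 4 of 8 fibroblast markers were higher under the NRF1 KD label, with Col3a1 at 1.46 (adjusted p = 0.0192) and Dpt at 0.90 (adjusted p = 0.0211), and 0 of 8 fibre, 0 of 8 endothelial, 0 of 5 adipocyte and 0 of 6 smooth muscle markers passed. Fibre markers summed to between 1775538 and 2280948 normalised counts under the NRF1 KD label and between 2139217 and 2244264 in WT con. Of 7 neutrophil markers 4 were higher, among them S100a9 at 2.45 (adjusted p = 0.00676) and Mmp9 at 2.21 (adjusted p = 0.0102), and S100a8 was lower at -1.57 (adjusted p = 0.0115). S100a8 had 598, 1402 and 763 normalised counts in libraries labelled double KD, 948, 802 and 645 in those labelled NRF1 KD and 2817 and 1962 in WT con. 2 of 6 T cell markers and 1 of 8 dendritic cell markers were higher, among them Cd4 at 3.35 (adjusted p = 0.0338). Cd4 had 33.6, 20.6 and 41.8 normalised counts under the NRF1 KD label and 0 and 8.73 in WT con. Its estimate thus rests on values near the floor. 0 of 6 NK cell and 0 of 4 B cell markers passed, and 1 of 7 Schwann cell markers was higher. Of 3 satellite cell markers 1 was lower, Myod1 at -1.12 (adjusted p = 0.00728).

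Across the 32 members with values in both sets, the log2 fold changes of libraries labelled NRF1 KD against WT con and of PAX4 KO against denervated WT, which share no library, had a Pearson r of 0.71 and a Spearman rho of 0.54. Spp1 had the lowest value in both, at 0.16 and -0.31. For the double KD label against WT con and the same PAX4 KO comparison, r and rho were 0.55 and 0.56. Between the NRF1 KD label and denervation in WT these were -0.17 and 0.02. Correlations over all genes are not reported here. The members are genes of the same libraries and are not independent, so these values are descriptions.

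The authors' deposited table called 30 of 32 members for NRF1 KD against WT con at an adjusted p under 0.05, all higher, of which 29 were also called here. It added Lgals3 and lacked Cd163. For the double KD against WT con the authors' deposited table called 17 of 32, all higher, which include the 7 called here. For PAX4 KO against denervated WT the authors' deposited table called 0 of 32, and for denervated against innervated WT it called 23 of 32, of which 22 were called here. In the latter it added Ptprc and lacked C1qb, Cd14 and Spp1, with adjusted p of 0.0561, 0.0552 and 0.0704 for these last genes.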

How the data were processed

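The 33 members and all gene lists were chosen with earlier results of these data known. The first set's values are raw counts per gene, as deposited by the authors. The second set's are log2-scale variance-stabilised values per the deposited table, from which normalised counts (the unit signal, scaled by size factors) and whole reads (100% within 0.05 of a whole number) were recovered. Its score and p-value columns are the authors' own test results in the deposited tables. Genome build GRCm38 (mm10) is named in the submitters' processing notes, and the counting tool and its strand setting are not given in these sources. RNA was extracted with TRIzol and libraries were made with a SMARTER kit, per the labels' protocols.

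Counts were fitted with edgeR 4.0.16 (quasi-likelihood test, TMM scaling, filterByExpr, all 9 libraries in 1 model, R 4.3.3). CPM are TMM-scaled shares of a library's counts. Normalised counts were fitted with limma 3.58.1 on log2(value + 1) with a trend, all 8 libraries in 1 model. Fold changes are log2 with the standard error after ±, and p-values are Benjamini-Hochberg adjusted over all genes of the fit, called under 0.05. On the log2(value + 1) scale changes of low genes are understated. The fit of each set was tested on simulated data with 200 changed genes. PAX4 KO against innervated WT and the double KD against the NRF1 KD label were not simulated. Between 51.0% and 55.0% of 2-fold changes and between 81.0% and 84.5% of 4-fold changes were recovered, with 3 to 14 false calls. Many 2-fold changes would thus be missed. DESeq2 1.42.0, other scalings, filters and pseudocounts, the replicate block, edgeR on recovered reads and leaving out each library were tried as alternatives. Libraries within a group differed by more than sampling noise (chi-square per degree of freedom 21.8 to 84.4). Every member may be named. Values per library are given for all members in the first set and, in the second, for the same genes or at least 2 per role group with the smallest p. Of other lists, up to 2 called genes per direction with the smallest adjusted p are named, and further genes were named after their values were seen. Some genes that this rule names are not reported here. Promoter windows are the RefSeq bases upstream of each start (GRCm38.p6). Gene coordinates in the count table matched GENCODE M21 for 30 of 33 members. All files were used as deposited.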

Additional observations from a re-analysis of the deposited data

How the results depend on the processing

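The direction of the median held in all alternatives tried, with a range of 1.02 to 1.80 for denervated against innervated WT, 0.64 to 1.23 for PAX4 KO against denervated WT, 2.01 to 2.81 for PAX4 KO against innervated WT, 1.57 to 2.15 for the NRF1 KD label against WT con, 0.79 to 1.13 for the double KD label against WT con and -1.12 to -0.65 for the double KD against the NRF1 KD label. Leaving out each library in turn gave 7 to 28 members higher for WT denervation, 31 to 32 for PAX4 KO against innervated WT, 15 to 31 for the NRF1 KD label, 0 to 18 for the double KD label against WT con and 0 to 16 lower for the double KD against the NRF1 KD label. For PAX4 KO against denervated WT, 10 members were higher with no filter on low counts, 1 with DESeq2 and 2 without innervated library 2 and denervated library 1, against 0. For the double KD against the NRF1 KD label, 1 member was lower with edgeR on recovered reads and 1 with only the 2 groups compared. The shares of all genes called in these alternatives are not reported here, and the cause of these moves was not tested.

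Single estimates that changed sign were Clec7a in PAX4 KO against denervated WT at -0.08 without PAX4 KO library 2 (-0.08 to 1.01 over libraries left out), Cd14 under the double KD label against WT con at -0.05 without double KD library 1 (-0.05 to 0.54), and Spp1. Spp1 under the double KD label against WT con was 0.12 with edgeR on recovered reads, 0.22 with the replicate block, 0.45 without double KD library 1 and 0.02 without WT con library 3 (-0.42 to 0.45), and against the NRF1 KD label it was 0.29 without double KD library 1 (-0.58 to 0.29). The columns of denervated and innervated WT share numbers whose meaning the labels do not give, and deviations of same-numbered libraries correlated at 0.184, 0.0855 and 0.354. Each library correlated best with its own number, a hint from the data and not from the design. With the replicate block, 31 members were higher for WT denervation, 25 for the NRF1 KD label against WT con and 1 for the double KD label against WT con. With it, 0 were lower for the double KD against the NRF1 KD label. Shares of all genes called with the block are not reported here. In the second set the same-number correlations lay between -0.219 and 0.141, so the libraries share only a number. No paired analysis was possible for PAX4 KO because its columns share no number with WT columns. The lowest member count in a library was 5, for Bst1 and for Trem2, so counting error is wide there.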

Other observations

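Lymphoid genes did not move as one with the myeloid list in the first set. B cell markers summed to between 20.1 and 21 CPM in PAX4 KO, between 22.9 and 31.2 CPM in denervated WT and between 58 and 156 CPM in innervated WT libraries. Ighm, the immunoglobulin mu heavy chain, made up most of these sums, with means of 18.6, 23.5 and 115 CPM in that order of groups. The other B cell markers had group means of at most 1.8 CPM. In PAX4 KO against innervated WT all 6 B cell markers fell, where 2935 of 16146 genes tested were lower and 3522 higher. Ighm fell by 2.63 (adjusted p = 0.000375) and Cd79b, a chain of the B cell receptor, by 1.46 (adjusted p = 0.0031). In the same comparison 4 of 6 T cell markers tested were higher and 1 was lower, and 3 of 6 NK cell markers were higher. In the second set B cell markers summed to between 328 and 378 normalised counts under the double KD label, between 357 and 554 under the NRF1 KD label and between 325 and 452 in WT con. Ighm again made up most of these sums, with means of 310, 439 and 334 normalised counts in that order.

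Fibroblast markers had a further spread. They summed to between 2441 and 6029 CPM in PAX4 KO, between 1567 and 2044 CPM in denervated WT and between 1597 and 2159 CPM in innervated WT libraries. Col1a1, a collagen chain, had 423, 1983 and 580 CPM in PAX4 KO, 350, 198 and 259 CPM in denervated WT and 127, 377 and 266 CPM in innervated WT libraries, with PAX4 KO library 2 far above the rest. That library is also the one with the highest value of its group for 28 of the 33 myeloid members. Against denervated WT, 0 of 8 fibroblast markers passed in PAX4 KO, with a median of 0.61.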
